A study of Homo sapiens with 48 samples.

Results

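The sphingosine phosphate genes examined here were 8 of the 19253 genes measured, chosen by symbol: the kinases SPHK1 and SPHK2, the phosphatases SGPP1 and SGPP2, the lyase SGPL1, and the receptors S1PR1, S1PR2 and S1PR3. SPHK1 entered the list because of its level in the cultures given ACE, CYC, IMI, TDCIPP, TEP or TPHP, and SGPP2 because of its level in DMSO_S9. Their values in those libraries, and in the libraries they were set against, are therefore given as a description with no test.

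RNA was sequenced from H9 cells, 1 established human embryonic stem cell line of wild-type genotype, in 48 libraries that formed 24 groups of 2. All groups but 1 were grown as a monolayer in E6 medium and taken on day 8 of differentiation. The groups with a compound and S9 were ACE_S9, CYC_S9, IMI_S9, TDCIPP_S9, TEP_S9 and TPHP_S9, and DMSO_S9 was their solvent control. The same 6 compounds were also given without S9 (ACE, CYC, IMI, TDCIPP, TEP and TPHP, below "the 6 compounds"). Another 9 were given only without S9 (BHA, TBHQ, BHT, BHT_CHO, BHT_COOH, DTBP, DG, AO_2246 and AO168_O, below "the 9 compounds"). DMSO was the solvent control without S9, and D0 was undifferentiated cells of day 0. The labels state no doses and no culture batches and do not say what S9 is, so compounds are compared at the exposures used. The labels also do not say whether the libraries of a group came from separate cultures, and the p-values measure only the spread between libraries.

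Sphingosine 1-phosphate is a signalling lipid made from sphingosine, a breakdown product of ceramide. The sphingosine kinases make it, the SGPP phosphatases of the endoplasmic reticulum turn it back into sphingosine, and the lyase SGPL1 cleaves it irreversibly, which is the exit of sphingolipids from the cell. Exported sphingosine 1-phosphate acts on G protein-coupled receptors of the S1PR family, which are best known for their part in blood vessel formation, lymphocyte traffic and cell migration.

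Library totals were 17918844 to 20096084 rounded counts, and all 8 genes had counts above 0 in all 48 libraries. The lowest expected counts were 12.3 for SGPP2, 13 for S1PR1 and 29 for SPHK1. Levels are given in TPM, which is per transcript length. Log2 fold changes come from the counts and are given with their standard error (SE). Adjusted p-values are from edgeR's quasi-likelihood test with Benjamini-Hochberg adjustment over all genes tested, and an adjusted p under 0.05 counted as a change. The DMSO_S9 libraries stood apart from all others of day 8: on the second principal component of log2 CPM (25.8% of the variance) they lay at 115 and 116, against -20.2 to 23.2 for the other 44. The comparisons of the members in the compounds with S9 against DMSO_S9 are therefore also given with DMSO in its place where they passed the test, while the interaction with S9 and the other pathway genes have no such counterpart. Fewer cells of a type and less RNA per cell cannot be told apart in these bulk samples.

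SPHK2 was the kinase with the higher level in every library, at a median of 34.8 TPM and 26.5 to 69.98 TPM over all 48. SPHK1 spanned 1.51 to 35.2 TPM. SGPL1 lay between 13.8 and 29.6 TPM, SGPP1 between 3.99 and 16.2 TPM, and SGPP2 between 0.23 and 23.3 TPM with a median of 0.90 TPM. Among the receptors, S1PR2 kept within 6.09 to 13.4 TPM, whereas S1PR3 ran from 2.92 to 78.3 TPM and S1PR1 from 0.46 to 3.87 TPM. The highest library exceeded the lowest by 101-fold for SGPP2, 26.8-fold for S1PR3 and 23.3-fold for SPHK1, and by 2.14-fold for SGPL1. SPHK2, SGPP2, S1PR1, S1PR2 and S1PR3 all had their highest group mean in DMSO_S9, while SPHK1, SGPP1 and SGPL1 had theirs in CYC.

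**Figure D1:**
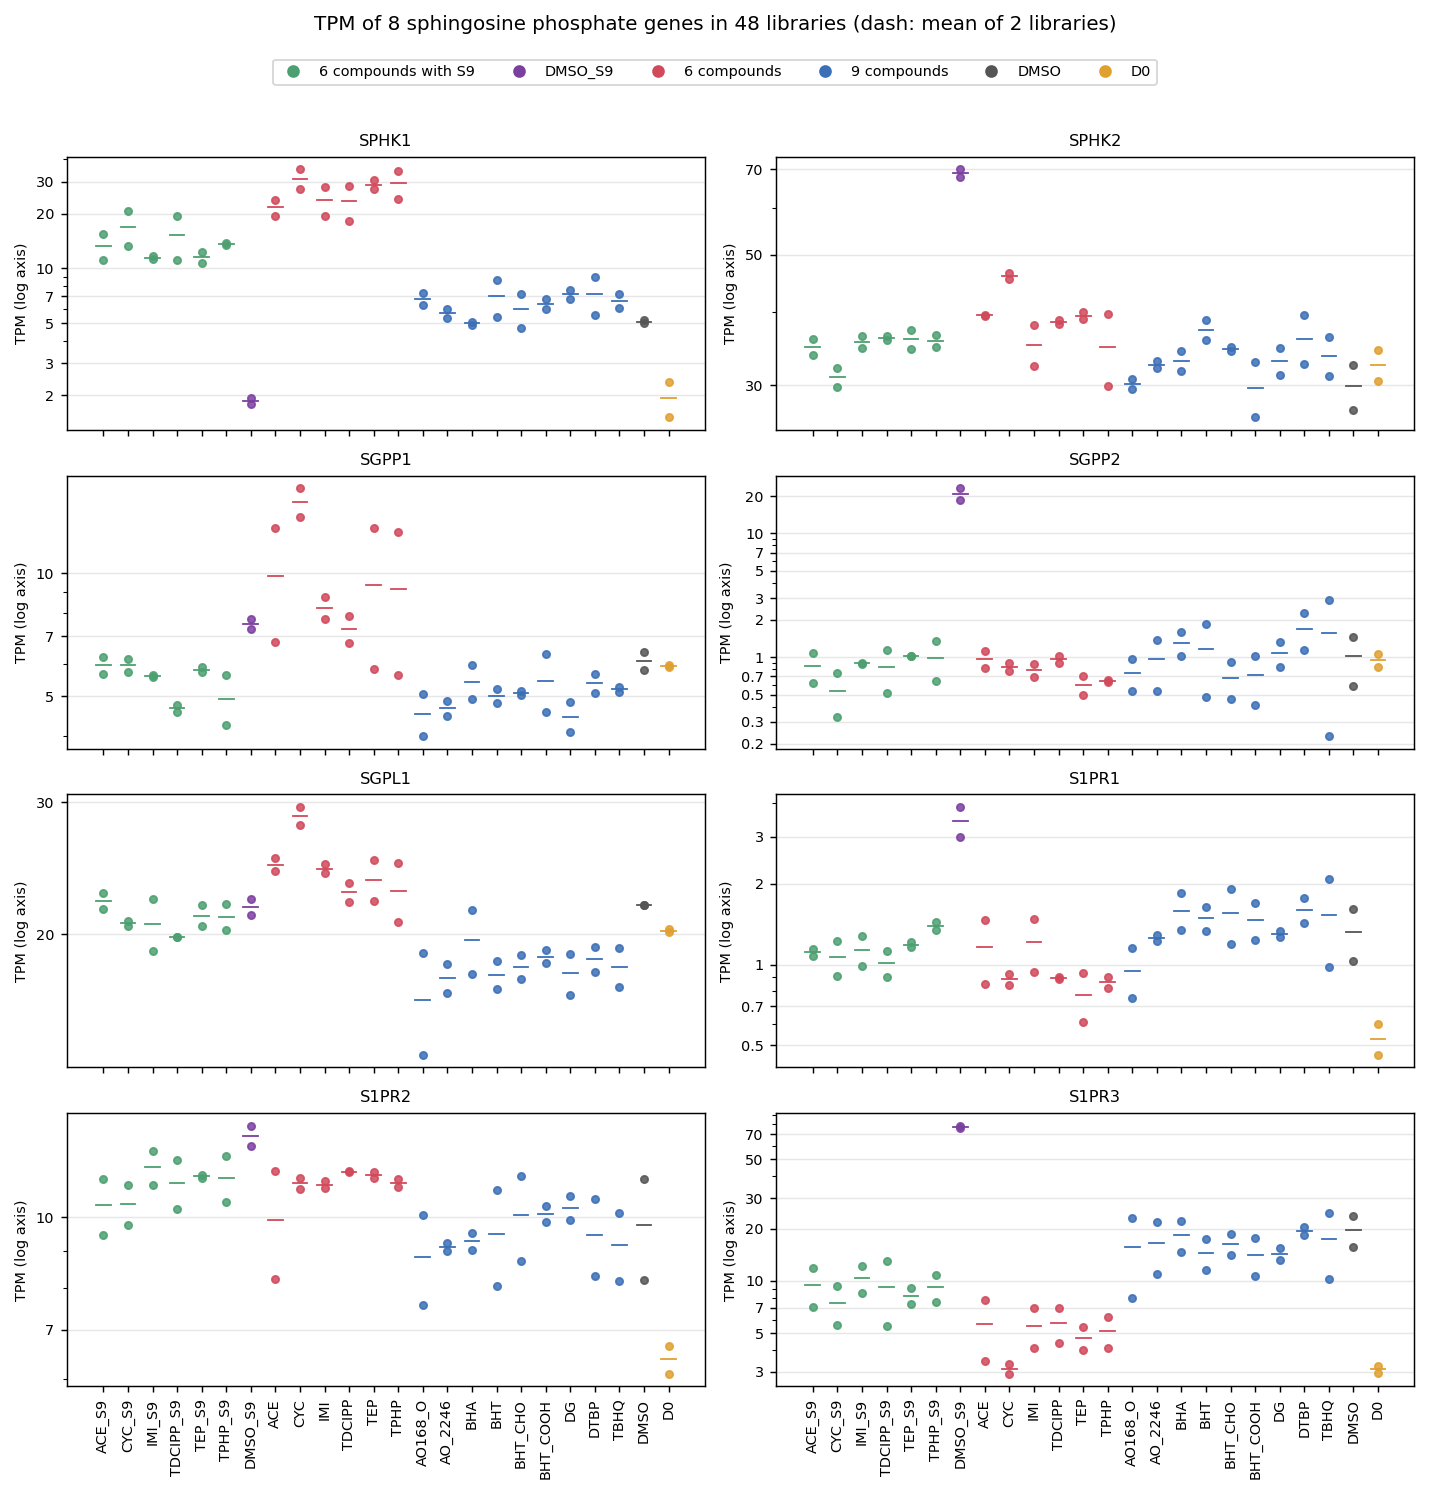
TPM (log axis) of each of the 8 genes in every library, by group, with a dash at the mean of 2 libraries and colours for the 6 sets of groups. SPHK1 is at 18.3 to 35.2 TPM in the 6 compounds and at 4.69 to 8.91 TPM in the 9 compounds, and SPHK2, SGPP2, S1PR1, S1PR2 and S1PR3 are at their highest in both DMSO_S9 libraries.

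SPHK1, an inducible cytosolic kinase that moves to the plasma membrane when activated, had 19.4 and 23.9 TPM in ACE, 27.3 and 35.2 TPM in CYC, and 19.4 and 28.0 TPM in IMI. It had 18.3 and 28.5 TPM in TDCIPP, 30.5 and 27.2 TPM in TEP, and 34.6 and 24.1 TPM in TPHP, against 4.98 and 5.19 TPM in DMSO. All 12 of these compound libraries lay above both DMSO libraries and above the highest library of the 9 compounds, which spanned 4.69 to 8.91 TPM with a median of 6.17 TPM. As a description, the log2 fold changes against DMSO were 2.59 for CYC, 2.50 for TPHP, 2.48 for TEP, 2.20 for TDCIPP, 2.19 for IMI and 2.04 for ACE, each with an SE of 0.28. For the 9 compounds the same quantity lay between 0.01 in BHA and 0.64 in DTBP. These 6 values were what chose the gene. Ordered by group mean, CYC, TPHP, TEP, IMI, TDCIPP and ACE came first, and each of them overlapped the next in the order. The next in order were the 6 groups with S9, and a gap without overlap followed between IMI_S9 (11.2 and 11.7 TPM) and DTBP (5.53 and 8.91 TPM). D0 (1.51 and 2.37 TPM) and DMSO_S9 (1.92 and 1.80 TPM) came last and overlapped.

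SPHK1 lies at chr17:76376584-76387860 on the plus strand of GRCh38, and 59 of its 4416 exon bases are shared with PRPSAP1 on the other strand. Whether the libraries kept strand is not given, so the reads of both genes cannot be told apart there. Where SPHK1 differed most from DMSO, in CYC, PRPSAP1 was higher by a log2 fold change of 0.30 (SE 0.11 and adjusted p 0.0402). RefSeq lists 3 start sites for SPHK1 and 2 for S1PR3, a receptor gene, and counts per gene do not tell which start was used. The windows from 250 bases before to 50 bases after a start (GRCh38.p14, RefSeq) are shown for the SPHK1 start with the most motif matches, picked after the matches were seen, and for both S1PR3 starts. These genes are shown because they differed most between the 6 and the 9 compounds. A window was found for 7 of the 8 genes, all but SGPP1. Capitals mark matches, on either strand, to the letters GCCNNNGGC of AP-2, GGGCGG of SP1 and AGATAA of GATA, and neighbouring matches may overlap.
SPHK1 window 2, chr17:76384359-76384658, plus strand: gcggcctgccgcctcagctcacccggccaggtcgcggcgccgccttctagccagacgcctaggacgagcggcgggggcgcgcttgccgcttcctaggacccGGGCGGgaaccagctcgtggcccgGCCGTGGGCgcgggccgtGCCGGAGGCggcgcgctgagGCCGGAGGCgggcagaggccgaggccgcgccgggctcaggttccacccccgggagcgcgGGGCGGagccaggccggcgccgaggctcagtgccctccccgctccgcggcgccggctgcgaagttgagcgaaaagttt
S1PR3 window 1, chr9:88990613-88990912, plus strand: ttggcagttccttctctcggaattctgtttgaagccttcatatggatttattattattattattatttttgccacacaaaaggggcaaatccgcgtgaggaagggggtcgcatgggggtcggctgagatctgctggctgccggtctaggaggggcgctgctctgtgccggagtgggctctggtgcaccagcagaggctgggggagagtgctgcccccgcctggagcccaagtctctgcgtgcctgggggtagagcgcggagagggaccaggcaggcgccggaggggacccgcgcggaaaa
S1PR3 window 2, chr9:88991218-88991517, plus strand: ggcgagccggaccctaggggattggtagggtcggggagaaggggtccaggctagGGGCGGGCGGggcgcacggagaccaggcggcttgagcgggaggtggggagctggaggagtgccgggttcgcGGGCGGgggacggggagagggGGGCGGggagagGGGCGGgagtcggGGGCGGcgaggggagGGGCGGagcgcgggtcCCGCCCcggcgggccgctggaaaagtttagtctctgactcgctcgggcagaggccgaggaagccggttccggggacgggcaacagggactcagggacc
The SPHK1 window held 3 AP-2 and 2 SP1 matches, and the other SPHK1 windows held 0 AP-2 matches and at most 1 SP1 match. The second S1PR3 window held 8 SP1 matches and the first held none of the motifs. Of all 35116 RefSeq windows, 23.2% held an AP-2 match, 45.0% an SP1 match and 10.3% a GATA match. No window of SPHK1 or S1PR3 held the GATA letters. A match says only that the letters are there.

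SPHK1 could be tested in libraries that its choice did not use. It had 10.8 to 20.6 TPM (median 12.9) in the 12 libraries of the 6 compounds with S9, against 4.69 to 8.91 TPM (median 6.17) in the 18 libraries of the 9 compounds. The sets did not overlap, and SPHK1 was higher with the 6 compounds and S9 by a log2 fold change of 0.95 (SE 0.10 and adjusted p 3.91e-08). In this comparison 47% of all genes passed. The sets differ both in compounds and in S9, which cannot be told apart in any comparison of the 6 compounds with S9 against the 9 compounds. Against the DMSO_S9 libraries, at 1.92 and 1.80 TPM, all 6 groups with S9 were higher, with log2 fold changes from 2.61 in TEP_S9 to 3.18 in CYC_S9 (adjusted p 4.73e-09 to 1.62e-07). These 6 comparisons share the same DMSO_S9 libraries, and 48.5% to 50.6% of all genes passed in them. Set beside DMSO instead (4.98 and 5.19 TPM), which the choice of SPHK1 used, the 12 libraries with S9 were also all above both. SPHK1 was higher in the 9 compounds than in D0, at 4.69 to 8.91 TPM against 1.51 and 2.37 TPM (log2 fold change 1.54, SE 0.27 and adjusted p 8.91e-06). As a description, the 6 compounds gave 10.8 to 20.6 TPM with S9 and 18.3 to 35.2 TPM without it (log2 difference -0.93), and these ranges overlapped in 2 libraries with S9, CYC_S9 2 at 20.6 TPM and TDCIPP_S9 2 at 19.4 TPM.

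SPHK2, the kinase found largely in the nucleus and mitochondria, was highest in DMSO_S9. It had 69.98 and 67.8 TPM in DMSO_S9, against 27.3 and 32.5 TPM in DMSO, a log2 fold change of 1.12 (adjusted p 1.15e-08, SE 0.11). Both DMSO_S9 libraries lay above all other libraries, of which CYC was the highest at 46.6 and 45.6 TPM. The 6 groups with S9 had 29.8 to 37.3 TPM and were each lower than DMSO_S9, by log2 fold changes from -0.84 in TDCIPP_S9 to -1.08 in CYC_S9 (adjusted p 1.13e-08 to 5.95e-07). Of all genes, 48.5% to 50.6% passed in these comparisons. Set against DMSO in place of DMSO_S9, the same 6 groups gave log2 fold changes of 0.04 to 0.28, none of which passed the test, so the sign of this difference rests on the DMSO_S9 libraries. Over the 6 members tested in this way, 0 of 36 values passed in edgeR and 7 had an unadjusted p under 0.05, where 0.385% (ACE_S9), 0.85% (CYC_S9), 0.689% (IMI_S9), 3.47% (TDCIPP_S9), 1.12% (TEP_S9) and 2.25% (TPHP_S9) of all genes passed. Against DMSO, SPHK2 was higher in 6 of the 15 compounds, with log2 fold changes of 0.55 in CYC (SE 0.11 and adjusted p 0.000557), 0.47 in BHT, 0.39 in DTBP, 0.35 in TDCIPP, 0.34 in TEP and 0.34 in AO_2246. Of all genes, 14.4% were higher in CYC, 2.95% in BHT, 2.28% in DTBP, 5.5% in TDCIPP, 6.78% in TEP and 5.8% in AO_2246. The calls in TDCIPP, TEP and DTBP, at adjusted p 0.0407 to 0.0490, were lost on leaving out any 1 of their libraries. The CYC call held without each of its 4 libraries. The BHT call was lost without BHT 1 or DMSO 1, and the AO_2246 call without AO_2246 1, DMSO 1 or DMSO 2. The TDCIPP, AO_2246 and DTBP calls were also lost in edgeR with no filter on low counts (adjusted p 0.0585 to 0.0737). The same calls were lost in the edgeR fit without the DMSO_S9 libraries (adjusted p 0.0537 to 0.0646). The DTBP call was lost with RLE factors as well (adjusted p 0.0501). Over all of the 6 compounds, SPHK2 was slightly lower with S9 than without (-0.14, SE 0.05 and adjusted p 0.0167), a call that was lost without TPHP 1. It was also lower in DMSO than in D0 by a log2 fold change of -0.44 (SE 0.11 and adjusted p 0.00145), a call that was lost without D0 2. Its mean CPM was 39.3 in DMSO and 53.5 in D0, without overlap, while its TPM overlapped at 27.3 and 32.5 in DMSO and 30.5 and 34.5 in D0. SPHK2 (chr19:48619291-48630717) shares 246 exon bases with RPL18 and 661 with DBP, both on the other strand. In DMSO_S9 against DMSO neither of these passed the test (0.20, adjusted p 0.165 for RPL18, and -0.20, adjusted p 0.404 for DBP). Neither passed in CYC, TDCIPP or TEP against DMSO. In 3 of the 6 compounds in which SPHK2 was higher, a neighbour was higher too: RPL18 in AO_2246 (0.66, adjusted p 0.00234), RPL18 (0.47, adjusted p 0.0235) and DBP (0.79, adjusted p 0.0194) in BHT, and RPL18 in DTBP (0.51, adjusted p 0.0171). DBP was also higher in DMSO than in D0 (1.92) and with S9 than without it in the 6 compounds (0.30), where SPHK2 was lower. The part of these neighbours in the SPHK2 counts was not tested.

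The kinases together shifted in balance. SPHK1 made up 22.4% to 39.1% of the summed TPM of both kinases in the 6 compounds with S9 (median 26.9%) and 2.59% and 2.67% in DMSO_S9. Without S9 its share was 32.1% to 46.6% (median 41.8%) in the 6 compounds, 11.9% to 19.5% (median 16.5%) in the 9 compounds, 13.8% and 15.4% in DMSO, and 4.71% and 6.44% in D0. The summed TPM of both kinases was 43.2 to 55.9 in the 6 compounds with S9, 69.6 and 71.9 in DMSO_S9, 51.8 to 80.8 in the 6 compounds, 32.4 to 48.4 in the 9 compounds, 32.3 and 37.7 in DMSO, and 32.1 and 36.8 in D0. SPHK2 thus remained the larger part of the kinase RNA in all 48 libraries, also where SPHK1 was highest. These shares are a description, since they contain the values that chose SPHK1.

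**Figure D2:**
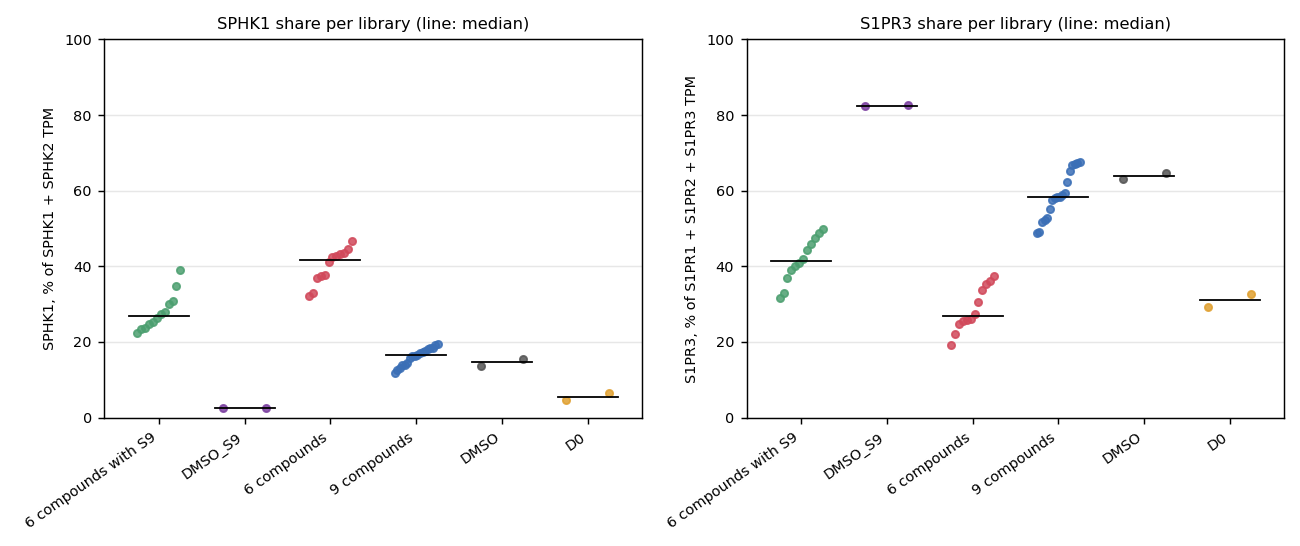
SPHK1 as a percentage of the TPM of both kinases (left) and S1PR3 as a percentage of the TPM of the 3 receptors (right), 1 point per library and a line at the median of each set. SPHK1 reaches 46.6% of the kinases in the 6 compounds and 2.67% at most in DMSO_S9, and S1PR3 makes up 82.3% and 82.7% of the receptors in DMSO_S9.

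SGPP1 (chr14:63684214-63728039, minus strand), a phosphatase of sphingosine 1-phosphate, was highest in CYC, at 16.2 and 13.7 TPM against 6.41 and 5.80 TPM in DMSO (log2 fold change 1.201, SE 0.29 and adjusted p 0.00252). This call held without each of the 4 libraries. The other 5 of the 6 compounds did not pass against DMSO, with log2 fold changes of 0.24 to 0.59 and libraries that were far apart: ACE had 6.78 and 12.9 TPM, TEP 12.9 and 5.82 TPM, and TPHP 12.6 and 5.64 TPM. The 5 libraries above 12 TPM were CYC 1, CYC 2, ACE 2, TEP 1 and TPHP 1. They were also the 5 with the highest summed TPM of 10 amnion and trophoblast markers, at 319 to 520 TPM, against at most 162 TPM in any other library; the part of this in the SGPP1 level was not tested. As a set, the 6 compounds had 5.64 to 16.2 TPM (median 8.29) against 3.99 to 6.34 TPM (median 5.04) in the 9 compounds, and SGPP1 was higher by a log2 fold change of 0.74 (SE 0.11 and adjusted p 7.70e-07), with overlap. With S9 the 6 compounds had 4.25 to 6.24 TPM, against 5.64 to 16.2 TPM without S9, and SGPP1 was lower with S9 by -0.78 on the log2 scale (SE 0.12 and adjusted p 8.03e-06). No group with S9 passed against DMSO_S9 (7.74 and 7.28 TPM), although all 12 libraries lay below both; the log2 fold changes were -0.27 to -0.59, and none of these 6 had an unadjusted p under 0.05.

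SGPP2 (chr2:222424517-222560948, plus strand), the other phosphatase, had 23.3 and 18.6 TPM in DMSO_S9, against 0.23 to 2.91 TPM in the other 46 libraries. The highest of these was TBHQ 2 at 2.91 TPM and the lowest TBHQ 1 at 0.23 TPM. In DMSO the level was 0.59 and 1.46 TPM, and the described log2 fold change of DMSO_S9 against DMSO was 4.26 (SE 0.65). Apart from DMSO_S9, every group overlapped the next in the order of group means. SGPP2 was tested where DMSO_S9 took no part, and 0 of 15 compounds passed against DMSO in edgeR, with log2 fold changes of -0.82 to 0.86 and 0 unadjusted p under 0.05. It was lower in the 6 compounds (0.50 to 1.12 TPM) than in the 9 compounds (0.23 to 2.91 TPM) by -0.58 (SE 0.26 and adjusted p 0.0493), a difference within the range of the 9 compounds. That call was lost on leaving out any 1 of 21 of the 30 libraries. Without TBHQ 2 the log2 fold change was -0.28 (adjusted p 0.260), and without BHT 2 it was -0.44 (adjusted p 0.126). The call was also lost with RLE factors, with no filter on low counts, with only the groups compared and without the DMSO_S9 libraries, with adjusted p 0.0501 to 0.0787 in these settings.

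SGPL1 (chr10:70815961-70881173, plus strand), the lyase, moved within a narrow range. It had 29.6 and 27.9 TPM in CYC, against 21.9 TPM in both DMSO libraries, and was higher by a log2 fold change of 0.29 (SE 0.09 and adjusted p 0.0183); the call was lost without CYC 1 or DMSO 2. The 6 compounds had 20.8 to 29.6 TPM and the 9 compounds 13.8 to 21.6 TPM, with overlap between 20.8 and 21.6 TPM, and SGPL1 was higher in the 6 compounds by 0.24 (SE 0.03 and adjusted p 4.36e-07). With S9 the 6 compounds had 19.0 to 22.7 TPM and SGPL1 was lower than without S9 by -0.19 (SE 0.04 and adjusted p 0.000163). It was lower in the 9 compounds than in D0, which had 20.2 and 20.3 TPM (-0.29, SE 0.07 and adjusted p 0.000277). In DMSO_S9 it had 22.3 and 21.2 TPM, 1 library above and 1 below both DMSO libraries, with a log2 fold change of -0.06 whose 95% interval ran from -0.25 to 0.13. For SGPP1 the same comparison gave 0.21 (95% interval -0.39 to 0.80).

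S1PR3 (chr9:88990863-89005010, plus strand), a receptor that couples to several classes of G protein, was the member with the widest tested change. It had 7.82 and 3.45 TPM in ACE, 2.92 and 3.34 TPM in CYC, and 6.97 and 4.10 TPM in IMI. It had 7.01 and 4.38 TPM in TDCIPP, 3.99 and 5.42 TPM in TEP, and 4.14 and 6.21 TPM in TPHP, against 15.7 and 23.6 TPM in DMSO. All 12 compound libraries lay below both DMSO libraries, and S1PR3 was lower in 6 of 6. These 6 comparisons share the same DMSO libraries. Of all genes, 15.2% were lower in CYC, 5.89% in TEP, 4.83% in TPHP, 3.6% in ACE, 3.56% in TDCIPP and 2.74% in IMI. CYC gave the largest log2 fold change of the 6, -2.73 (SE 0.48 and adjusted p 0.000149), followed by TEP at -2.12 (adjusted p 0.00354), TPHP at -1.96 (adjusted p 0.00638), ACE at -1.90 (adjusted p 0.0109), IMI at -1.89 (adjusted p 0.0146) and TDCIPP at -1.79 (adjusted p 0.0133). The CYC call held without each of its 4 libraries. The ACE call was lost without ACE 2 or DMSO 2, the IMI and TDCIPP calls without DMSO 1, DMSO 2 or their own library 2, the TEP call without TEP 1 and the TPHP call without TPHP 1. In those cases the log2 fold changes were -1.44 to -2.10. In the authors' deposited table, the log2 fold changes of S1PR3 against DMSO were -1.91 in ACE (q-value 0.0354) and -2.74 in CYC (q-value 2.60e-33). Their q-values also passed for SPHK2 (0.00343) and SGPP1 (1.14e-06) in CYC, and for S1PR3 in DMSO against D0 (1.92e-19). In DMSO_S9 against DMSO they passed for SPHK2 (3.50e-14), S1PR1 (0.0101) and S1PR3 (3.24e-31). Other calls made here did not pass there: SPHK2 in AO_2246 (0.678), BHT (0.398) and DTBP (0.307), and SGPL1 in CYC (0.200). In DMSO against D0 neither SPHK2 (0.0624) nor S1PR1 (0.229) passed by the deposited q-values. For S1PR3 in IMI the authors gave a log2 fold change of -1.89 without a q-value. No values of theirs were found for TDCIPP, TEP or TPHP, so the calls in these groups could not be set beside theirs.

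None of the 9 compounds passed for S1PR3 against DMSO in edgeR, with 0 unadjusted p under 0.05. They had 8.03 to 24.6 TPM (median 16.5), a range that includes both DMSO libraries, and log2 fold changes of -0.39 to 0.12 with 95% intervals that reached from -1.26 to 0.98. Set against each other directly, the 6 compounds had 2.92 to 7.82 TPM and the 9 compounds 8.03 to 24.6 TPM, without overlap, and S1PR3 was lower in the 6 compounds by -1.90 (SE 0.18 and adjusted p 4.33e-10). The library nearest to the gap among the 9 compounds was AO168_O 1 at 8.03 TPM, whose partner had 23.2 TPM. With S9, the 6 compounds had 5.52 to 13.01 TPM (median 8.81), which overlapped both sets, and were lower than the 9 compounds by -1.01 (SE 0.17 and adjusted p 1.88e-05). They were higher than the same compounds without S9 by 0.89 (SE 0.19 and adjusted p 0.000446).

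In DMSO_S9, S1PR3 had 78.3 and 76.3 TPM, against 15.7 and 23.6 TPM in DMSO, and was higher by 1.89 (SE 0.43 and adjusted p 0.000767). No other library exceeded 24.6 TPM. All 6 groups with S9 were lower than DMSO_S9, from -2.87 in IMI_S9 to -3.31 in CYC_S9 (adjusted p 1.32e-06 to 7.22e-06), where 48.5% to 50.6% of all genes passed. With DMSO in place of DMSO_S9 the log2 fold changes were -0.98 to -1.42, of the same sign, and none passed (adjusted p 0.107 to 0.279). S1PR3 was higher in the 9 compounds than in D0 (3.25 and 2.96 TPM) by 2.18 (SE 0.40 and adjusted p 1.74e-05), and higher in DMSO than in D0 by 2.36 (SE 0.46 and adjusted p 6.94e-05). The level in CYC, at 2.92 and 3.34 TPM, overlapped that of D0, and D0 and CYC were the lowest in the order of group means.

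S1PR1 (chr1:101236865-101243713, plus strand), the receptor best known from endothelium and lymphocytes, had the lowest level of the 3 receptors in every library. It had 2.99 and 3.87 TPM in DMSO_S9, against 1.03 and 1.61 TPM in DMSO (log2 fold change 1.27, SE 0.29 and adjusted p 0.000738). All other libraries were at 2.09 TPM or below. The 6 groups with S9 (0.90 to 1.44 TPM) were lower than DMSO_S9 in 6 of 6, from -1.23 in TPHP_S9 to -1.64 in TDCIPP_S9 (adjusted p 4.49e-05 to 0.000748). In these comparisons 48.5% to 50.6% of all genes passed. Against DMSO the same groups gave S1PR1 values of -0.37 to 0.03 and none passed. It was lower in the 6 compounds (0.61 to 1.48 TPM, median 0.90) than in the 9 compounds (0.75 to 2.09 TPM, median 1.33) by -0.74 (SE 0.12 and adjusted p 3.25e-06), with overlap. With S9, the 6 compounds were lower than the 9 compounds by -0.44 (SE 0.11 and adjusted p 0.00241). Against DMSO, 0 of 15 compounds passed in edgeR and 3 had an unadjusted p under 0.05, TEP at -0.87, CYC at -0.69 and TPHP at -0.68. S1PR1 was higher in the 9 compounds than in D0 (0.60 and 0.46 TPM) by 1.21 (SE 0.27 and adjusted p 0.000211) and higher in DMSO than in D0 by 1.04 (SE 0.33 and adjusted p 0.00828), the DMSO call being lost without D0 2 or DMSO 2. Among endothelial markers, PECAM1 was at most 0.80 TPM in any library and CDH5 at most 0.19 TPM and at 0 in 10 of 48, and ERG was at most 0.90 TPM. KDR was at 2.81 to 58.7 TPM, VWF was at 1 TPM or more in 46 libraries and CLDN5 in 40, TEK in 5 and TIE1 in 4. The 8 endothelial markers summed to 12.1 and 13.5 TPM in DMSO_S9, against 30.01 and 36.3 TPM in DMSO, where S1PR1 was lower. KDR had the highest level of the 8, at a median of 17.1 TPM over all libraries. Their sum was highest in the undifferentiated cells of D0, at 50.1 and 64.7 TPM, so it does not measure endothelium alone. The part of these markers in the result was not tested.

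S1PR2, a receptor that couples to G proteins of the G12 and G13 class in addition to others, varied by 2.20-fold between its lowest and its highest library. It had 9.47 to 12.4 TPM in the 6 compounds with S9, 13.4 and 12.5 TPM in DMSO_S9, 8.23 to 11.6 TPM in the 6 compounds, 7.58 to 11.4 TPM in the 9 compounds, 8.20 and 11.3 TPM in DMSO, and 6.09 and 6.66 TPM in D0. D0 lay below all libraries of day 8. S1PR2 was higher in the 9 compounds than in D0 by 0.39 (SE 0.11 and adjusted p 0.00282), a call that was lost without D0 1. No other comparison in edgeR passed for it. Against DMSO the log2 fold changes over 15 compounds were -0.07 to 0.23, with 0 unadjusted p under 0.05. DMSO_S9 against DMSO gave 0.32 (95% interval 0.03 to 0.60, adjusted p 0.0623). S1PR2 (chr19:10221433-10231331) shares 83 exon bases with DNMT1 on the same strand, and DNMT1 was lower in the 9 compounds than in D0 by -0.65.

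**Figure D3:**
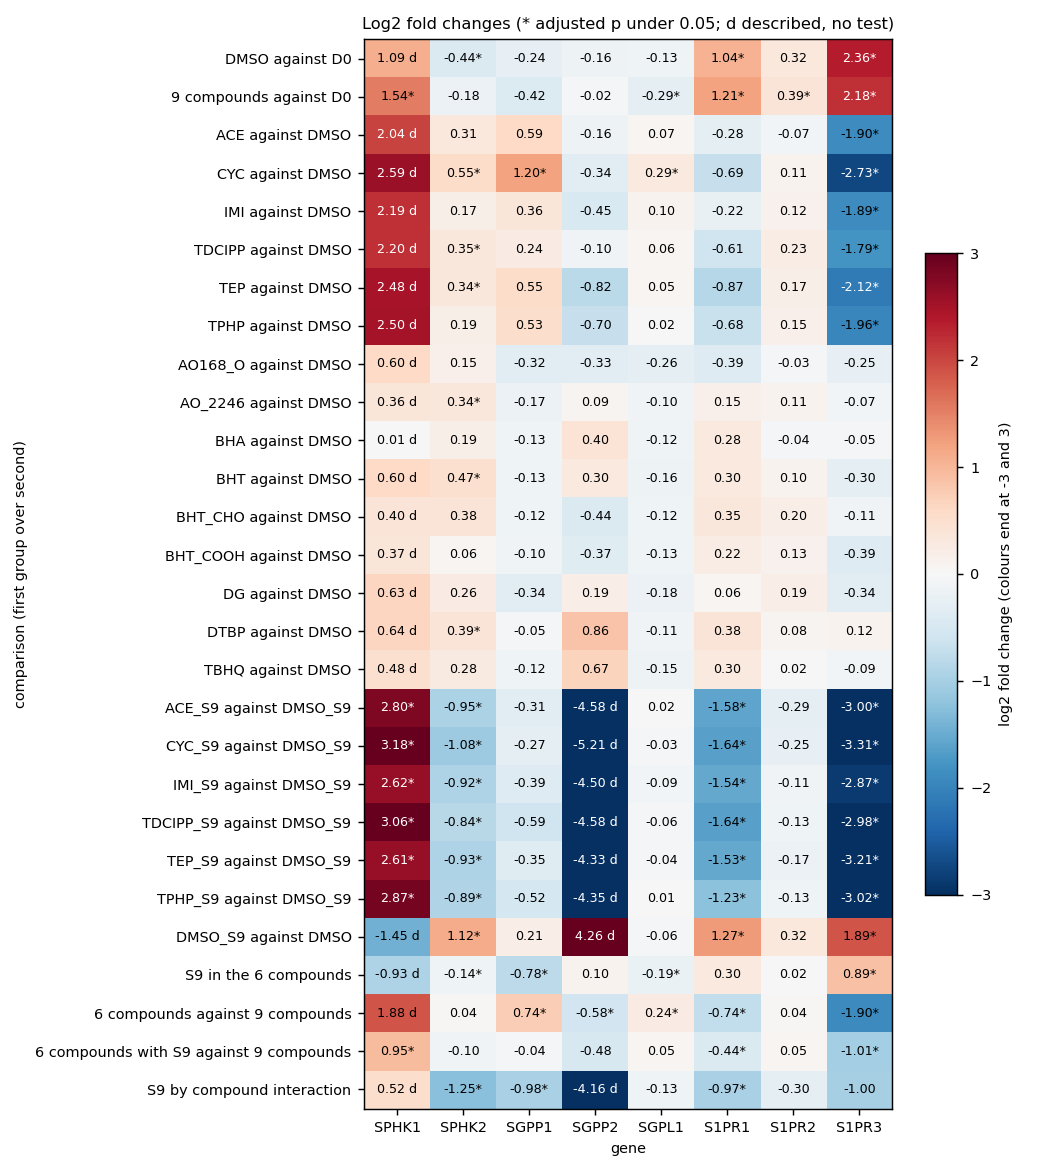
Log2 fold changes of the 8 genes (columns) in 28 comparisons (rows, first group over second); a star marks an adjusted p under 0.05 and a d a value that is described with no test, and colours end at -3 and 3. S1PR3 carries a star in each of the 6 compounds against DMSO and in none of the 9, and S1PR2 in 1 row.

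The makeup of the receptor RNA differed between the groups, as a description. S1PR3 was 31.7% to 49.8% of the summed TPM of the 3 receptors in the 6 compounds with S9 (median 41.4%) and 82.3% and 82.7% in DMSO_S9. It was 19.2% to 37.4% in the 6 compounds (median 26.8%), 48.9% to 67.6% in the 9 compounds (median 58.3%), 63.0% and 64.6% in DMSO, and 29.4% and 32.7% in D0. The shares of the 6 compounds did not overlap those of the 9 compounds or of DMSO, and they did overlap those of D0. The summed TPM of the receptors was 92.7 and 94.6 in DMSO_S9, 12.5 to 20.9 in the 6 compounds, 16.4 to 36.8 in the 9 compounds and 9.94 and 10.1 in D0.

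Among the sets of day 8, SPHK1 was highest in the 6 compounds and lowest in DMSO_S9, and S1PR3 was lowest in the 6 compounds and highest in DMSO_S9, while in D0 both were low. Across the 12 libraries of the 6 compounds, the Pearson r of log2 TPM was -0.76 (Spearman -0.68; -0.59 without the 2 libraries farthest from the median of SPHK1). Across the 12 libraries with S9 it was -0.80 (Spearman -0.65; -0.51 without 2). Across the 18 libraries of the 9 compounds it was 0.18 (Spearman 0.16). For S1PR1 and S1PR3 the same quantity was 0.75 in the 9 compounds (0.58 without 2), 0.62 in the 6 compounds (0.17 without 2) and 0.42 with S9 (-0.23 without 2), so that in both sets of 12 it rested on 2 libraries. SGPL1 and SGPP1 gave 0.82 in the 6 compounds (0.69 without 2), 0.59 in the 9 compounds (0.19 without 2) and 0.53 with S9 (0.61 without 2). In these descriptions the 2 libraries of a group share a treatment, and both genes of a pair share the library and its depth.

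**Figure D4:**
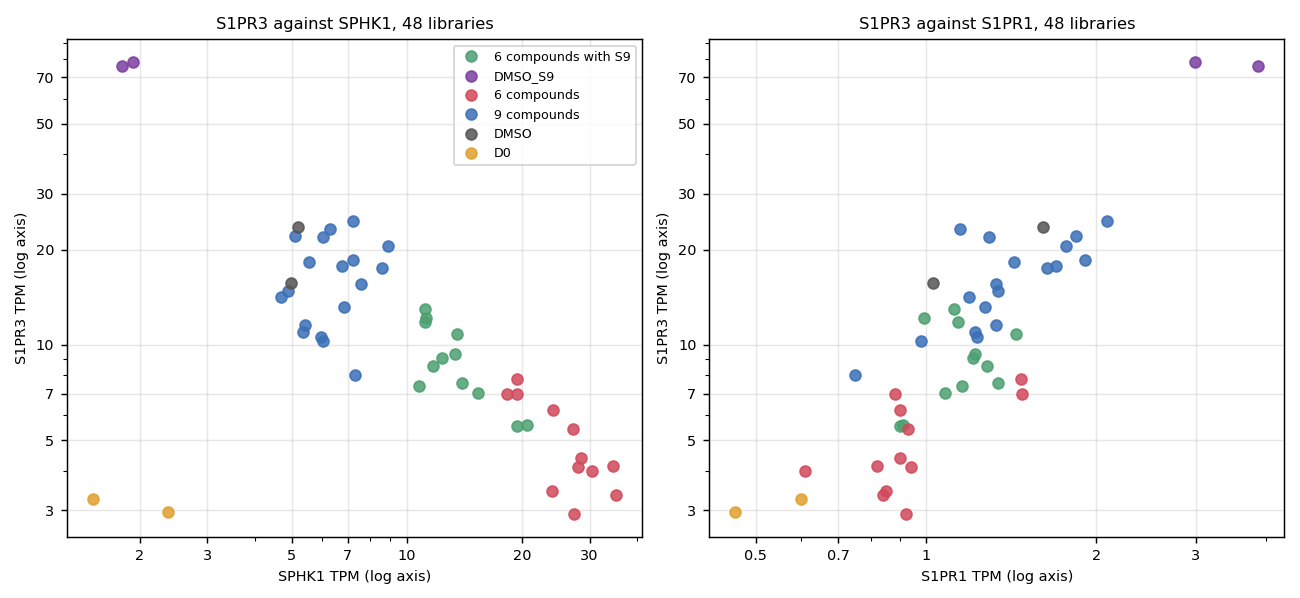
S1PR3 TPM against SPHK1 TPM (left) and S1PR1 TPM (right), both on log axes, 1 point per library and colours for the sets. The 6 compounds are at 18.3 to 35.2 TPM of SPHK1 with 2.92 to 7.82 TPM of S1PR3, DMSO_S9 is at the opposite end on the left and at the top right of the right panel, and D0 is low for all 3 genes.

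Counted over the members, 14 of 105 tested values passed in the 15 compounds against DMSO, 8 higher and 6 lower. The 6 lower ones were all S1PR3, and the 8 higher ones were 6 of SPHK2 and 1 each of SGPP1 and SGPL1 in CYC. CYC held 4 of its 7 tested members, where 29.6% of all 16113 genes passed. TDCIPP and TEP held 2 each (9.06% and 12.7% of all genes), ACE, IMI and TPHP 1 each (8.55%, 6.21% and 11.3%), and AO_2246, BHT and DTBP 1 each (10.5%, 4.6% and 3.07%). AO168_O (0%), BHA (0.00621%), TBHQ (0.161%), BHT_COOH (0.00621%), BHT_CHO (2.15%) and DG (5.49%) held 0 in edgeR. In all, 23 of the 105 values had an unadjusted p under 0.05. The share of members called was thus read against a background that differed widely between compounds. In DMSO against D0, 3 of 7 passed (58.2% of all genes), and in the 9 compounds against D0, 5 of 8 (66.6%), shares near those of all genes. In the groups with S9 against DMSO_S9, 24 of 42 passed, where the shares of all genes were 48.5% in ACE_S9, 49.5% in IMI_S9, 50.4% in CYC_S9 and in TPHP_S9, and 50.6% in TDCIPP_S9 and in TEP_S9. In DMSO_S9 against DMSO 3 of 6 passed, with 45.7% of all genes. In the S9 comparison within the 6 compounds 4 of 7 passed (41.3%), in the 6 against the 9 compounds 5 of 7 (66.5%), and in the 6 with S9 against the 9 compounds 3 of 8 (47%). The members' shares in these sets were near the background, and no more is read from them.

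Whether the compound effect differed with S9 was tested as the mean of the 6 compounds with S9 minus DMSO_S9, less the mean of the 6 without S9 minus DMSO. It differed in 3 of 6 tested members, where 50.9% of all genes passed: SPHK2 (-1.25, SE 0.12 and adjusted p 4.38e-09), SGPP1 (-0.98, SE 0.32 and adjusted p 0.0110) and S1PR1 (-0.97, SE 0.31 and adjusted p 0.0116). For S1PR3 the difference was -1.002 (SE 0.46 and adjusted p 0.0689), and the 95% interval ran from -1.94 to -0.06. All of these values rest on the DMSO_S9 libraries.

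The labels do not group the compounds by structure. From their names, 9 pairs were taken as related compounds, a relation the labels do not give. They were set against each other: CYC with IMI, CYC with ACE, IMI with ACE, TPHP with TDCIPP, TEP with TDCIPP, TEP with TPHP, BHT_CHO with BHT, BHT_COOH with BHT and TBHQ with BHA. Of 66 tested values, 0 passed in edgeR, 7 had an unadjusted p under 0.05 and 0 passed in DESeq2; 0.0621% of all genes passed in CYC against IMI and 0% in each of the other 8 pairs. The 7 were SPHK2, SGPP1 and SGPL1 in CYC against IMI and in CYC against ACE, and SPHK2 in BHT_COOH against BHT. SGPP1 had 16.2 and 13.7 TPM in CYC against 7.74 and 8.72 TPM in IMI, a log2 difference of 0.84 (95% interval 0.26 to 1.42, adjusted p 0.144). S1PR3 had 2.92 and 3.34 TPM in CYC against 6.97 and 4.10 TPM in IMI, a log2 difference of -0.84 (95% interval -1.85 to 0.17). SPHK2 had 26.5 and 32.8 TPM in BHT_COOH, against 35.8 and 38.8 TPM in BHT (-0.41, 95% interval -0.64 to -0.18, adjusted p 0.908). No member was shown to differ between the compounds of a pair, and the intervals do not show that they act alike, at doses that are not given.

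Cell state markers moved with the same sets of libraries. The 12 surface ectoderm markers summed to 5365 to 9488 TPM in the 6 compounds, against 1855 to 3498 TPM in the 9 compounds. The sum was 2263 and 2639 TPM in DMSO and 2156 and 2497 TPM in D0. KRT8 and KRT18 had the highest levels of the 12, at medians of 1225 and 860 TPM over all libraries. In the 6 against the 9 compounds 11 of 12 were higher, where 66.5% of all genes passed in either direction. The 12 neural ectoderm markers summed to 367 to 962 TPM in the 6 compounds, against 772 to 1565 TPM in the 9 compounds. Of these, 12 of 12 were lower, beside the same 66.5% of all genes. With S9, the 6 compounds had 2674 to 4349 TPM of surface ectoderm and 726 to 1320 TPM of neural ectoderm markers, and DMSO_S9 had 3196 and 3291 TPM and 1944 and 1985 TPM. The 10 amnion and trophoblast markers summed to 59.3 to 520 TPM in the 6 compounds, against 22.45 to 35.25 TPM in the 9 compounds, without overlap. With S9, the 6 compounds had 29.4 to 63.3 TPM of these markers. DMSO_S9 had 36.6 and 39.3 TPM of them, DMSO 31.75 and 33.7 TPM, and D0 22.46 and 23.4 TPM. Pluripotency markers summed to 1677 and 1680 TPM in DMSO_S9, against 3875 and 4796 TPM in DMSO and 8090 and 8350 TPM in D0. The hepatocyte markers, with ALB at most 0.24 TPM in any library, summed to 3.06 to 8.25 TPM in the 6 compounds with S9 and 2.43 to 4.61 TPM without. The part of these cell states in the levels of SPHK1, S1PR3 or SGPP2 was not tested.

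Of 43 other sphingolipid genes, 42 could be tested, S1PR4 being at 0.39 TPM or below throughout. In the 6 against the 9 compounds, 6 were higher and 15 lower, where 66.5% of all genes passed, with a median log2 fold change of -0.06 against 0.01 over all genes. SPNS2, the exporter of sphingosine 1-phosphate, was the only one of these 21 past a log2 fold change of 1 in either direction. It had 11.7 to 65.3 TPM in the 6 compounds (median 28.7), against 4.95 to 8.36 TPM in the 9 compounds (median 6.78), without overlap (2.02, SE 0.17 and adjusted p 1.06e-10). Against DMSO (6.55 and 7.62 TPM) SPNS2 was higher in CYC by 3.05 (SE 0.50 and adjusted p 7.56e-05), TEP by 2.10, TPHP by 2.02, ACE by 2.01 and TDCIPP by 1.69, while IMI gave 1.49 (adjusted p 0.0639). With S9 the 6 compounds had 7.09 to 12.3 TPM of SPNS2, lower than without S9 by -1.82 (SE 0.20 and adjusted p 6.36e-08), and against the 9 compounds the difference was 0.20 (95% interval -0.18 to 0.57). SPNS2 was higher in the 9 compounds than in D0 (0.44 and 0.85 TPM) by 3.20 (SE 0.57 and adjusted p 1.37e-05). By the medians of the sets, SPNS2 and SPHK1 levels were both highest in the 6 compounds, where the S1PR3 level was lowest among the sets of day 8. DMSO_S9 did not share this pattern. SPNS2 had 11.64 and 11.87 TPM there, above DMSO and all of the 9 compounds and overlapping the 6 compounds. In DMSO_S9 the SPHK1 level was the lowest and the S1PR3 level the highest among the sets of day 8.

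In DMSO_S9 against DMSO, 9 of the 42 genes were higher and 12 lower, where 45.7% of all genes passed. PLPP1, a lipid phosphatase of the cell surface, had 19.4 and 22.1 TPM in DMSO_S9, against 182 and 194 TPM in DMSO, and was lower by -3.29 (SE 0.31 and adjusted p 3.73e-09); no other library was below 82.6 TPM. S1PR5, another receptor of the family, had 0.14 and 0.19 TPM in DMSO_S9, against 1.21 and 1.39 TPM in DMSO (-3.06, SE 0.59 and adjusted p 0.000154), so that S1PR5 and the receptors S1PR1 and S1PR3 changed in opposite directions. Of the subunits of serine palmitoyltransferase, the first enzyme of sphingolipid synthesis, SPTLC3 was higher by 1.75 (SE 0.34) and SPTLC2 lower by -1.11 (SE 0.17). PLPP3 (-1.07, SE 0.22) and the sphingomyelin synthase SGMS2 (-1.37, SE 0.38) were lower as well. In CYC against DMSO, S1PR5 was lower by -1.52 (SE 0.49 and adjusted p 0.0206), with 3 of the 42 higher and 7 lower in all, where 29.6% of all genes passed.

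**Figure D5:**
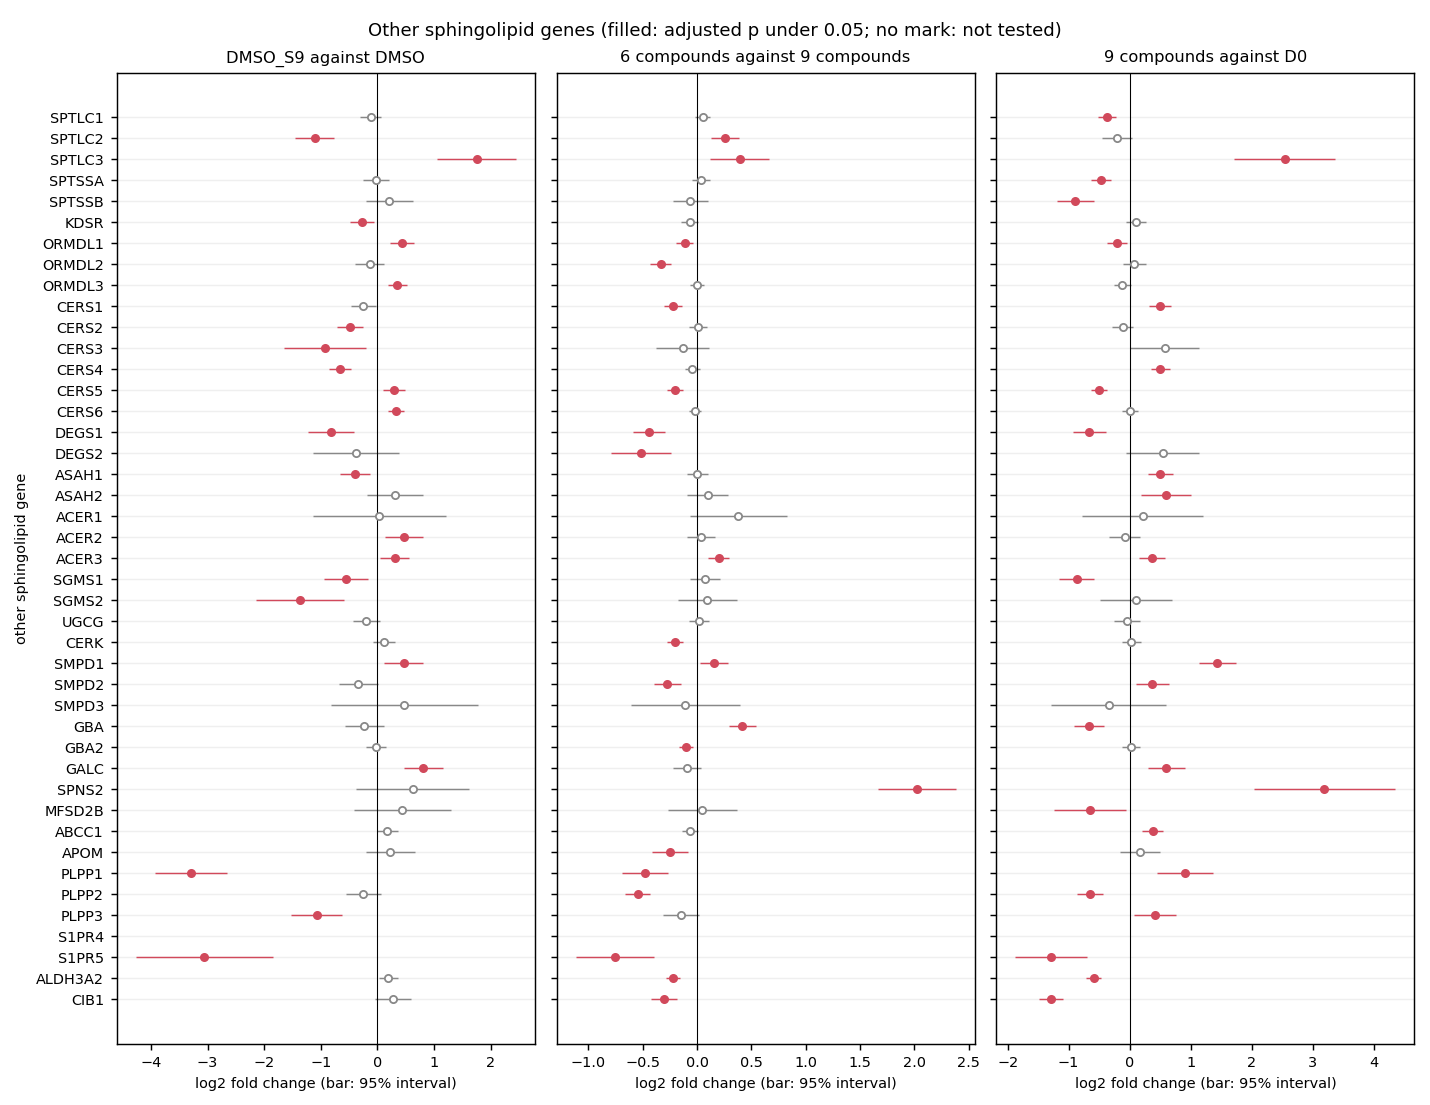
Log2 fold changes with 95% intervals of 42 other sphingolipid genes in DMSO_S9 against DMSO, in the 6 against the 9 compounds and in the 9 compounds against D0; filled points passed at an adjusted p under 0.05, and each panel has its own scale. SPNS2 lies at 2.02 in the middle panel and 3.20 in the right one, and PLPP1 and S1PR5 lie at -3.29 and -3.06 in the left one.

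In the 9 compounds against D0, 13 of the 42 pathway genes were higher and 13 lower, where 66.6% of all genes passed, with a median of 0.02 over the list and 0.02 over all genes. Beside SPNS2, the named genes were SPTLC3 (2.54, SE 0.41), the acid sphingomyelinase SMPD1 (1.44, SE 0.15), S1PR5 (-1.28, SE 0.29) and CIB1 (-1.29, SE 0.10), a calcium-binding protein known to help SPHK1 reach the plasma membrane. CIB1 and SPHK1 moved in opposite directions between D0 and day 8. DMSO against D0 named the same 5 genes with the same signs.

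The genes whose group means ran most like SPHK1 over the 24 groups, among 14337 genes with a mean CPM of at least 1, were CLDN9 (Pearson r of log2 CPM 0.983), FOXI3 (0.976), ZFP36L2 (0.973), INF2 (0.972) and ATP6V0D2 (0.968). Without DMSO_S9 the r of these 5 was 0.9755 to 0.985. That check kept ACE, CYC, IMI, TDCIPP, TEP and TPHP, the groups whose level chose SPHK1. How far the likeness to SPHK1 rests on those groups was not tested. For SGPP2 the most similar genes were FLRT2 (0.958), PCDHGA10 (0.947), HDAC6 (0.939), GREB1 (0.932) and CDV3 (0.927). Without DMSO_S9 their r was 0.436 to 0.697, so the likeness to SGPP2 rested largely on 1 of the 24 groups. These points share libraries and depth, and no test was made.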

How the data were processed

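RNA-seq libraries made from total RNA of H9 cells were analysed from 1 deposited table of all 48 libraries. It holds read counts and TPM per gene, per the file headers. The authors deposited counts that are not whole numbers, and each was treated as an estimated count. Per the submitters' processing notes, the genome build was GRCh38.p13. The aligner, the counting tool and the strand setting were not given in the sources used here. Next to the counts, the authors' deposited log2 fold changes stand with q-values from DESeq2, per the file headers, and both are quoted only where named as theirs.

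Expected counts were rounded to whole numbers, which changed 43.4% of them. Genes were filtered by filterByExpr, scaled by TMM and fitted with 1 coefficient per group in edgeR 4.0.16 (limma 3.58.1, R 4.3.3), by the quasi-likelihood test with Benjamini-Hochberg adjustment over all genes and a threshold of 0.05. The 46 libraries of day 8 shared 1 fit (16113 genes), and the comparisons with D0 used all 48 (16209 genes). All 8 members passed the filter. The fit was tested on simulated counts. Levels are the deposited TPM, described with Python 3.11.15 and pandas 2.3.3.

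Members, pathway lists and marker lists were chosen with earlier results of these data known. Other pathway genes are named where the adjusted p was under 0.05, the log2 fold change at least 1 in size, the mean CPM at least 1 in the higher group and the libraries did not overlap, up to 6 per comparison. Exceptions are SPNS2 values in other comparisons and GALC in TDCIPP_S9, given after they were seen. Alternatives were RLE factors, no filter, only the groups compared, a replicate block, DESeq2 1.42.0 and leaving out each library. Added after the data were seen were DMSO in place of DMSO_S9 and a fit without DMSO_S9. The precision of a group rests on 2 libraries.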

Additional observations from a re-analysis of the deposited data

Results flagged for a closer look

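In 3 of 6 tested members the effect of the 6 compounds differed with S9, by edgeR's test of the difference itself. In the same test 50.9% of all genes passed, a share near that of the members. The compound effect with S9 (against DMSO_S9) minus that without S9 (against DMSO) was -1.25 for SPHK2 (adjusted p 4.38e-09), -0.98 for SGPP1 (adjusted p 0.0110) and -0.97 for S1PR1 (adjusted p 0.0116), on the log2 scale. Each of these values uses the DMSO_S9 libraries, which stood apart. SPHK2 had 29.8 to 37.3 TPM in the 6 compounds with S9 and 69.98 and 67.8 TPM in DMSO_S9, against 29.97 to 46.6 TPM in the 6 compounds and 27.3 and 32.5 TPM in DMSO. SGPP1 had 4.25 to 6.24 TPM with S9 and 7.74 and 7.28 TPM in DMSO_S9, against 5.64 to 16.2 TPM in the 6 compounds and 6.41 and 5.80 TPM in DMSO. S1PR1 had 0.90 to 1.44 TPM with S9 and 2.99 and 3.87 TPM in DMSO_S9, against 0.61 to 1.48 TPM in the 6 compounds and 1.03 and 1.61 TPM in DMSO. The S1PR1 value lost its call without DMSO 1 or DMSO_S9 2, and the SGPP1 value without DMSO 2 or DMSO_S9 1. A cause of these differences was not tested.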

How the results depend on the processing

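With 2 libraries a group, the DMSO controls decide many calls. The 15 compounds against DMSO gave 14 member calls, and 6 to 15 on leaving out a library (7 without DMSO 1, 6 without DMSO 2) and 8 with only the groups compared. DMSO against D0 gave 3, and 1 to 4 (1 without D0 2). The interaction with S9 gave 3, and 2 to 5 (5 without ACE 2). The groups with S9 gave 24 calls against DMSO_S9, 18 lower and 6 higher, the higher ones all SPHK1. SPHK1 was not tested against DMSO, which its choice used. With DMSO in place of DMSO_S9, an alternative added after the data were seen, the 18 lower calls became 0. There SPHK2 changed sign, at 0.17 in ACE_S9, 0.037 in CYC_S9, 0.20 in IMI_S9, 0.28 in TDCIPP_S9, 0.19 in TEP_S9 and 0.22 in TPHP_S9, as did S1PR1 at 0.035 in TPHP_S9. The compound pairs gave 0 calls, and 1 with only the groups compared. SPHK1, as a described value, changed sign on leaving out a library in BHA against DMSO (-0.075 to 0.083), IMI against ACE (-0.13 to 0.40), TEP against TDCIPP (-0.014 to 0.64) and TEP against TPHP (-0.25 to 0.24). Over all groups of day 8 the replicate numbers showed no common pairing. The correlation of deviations between same-numbered libraries was -0.43 to 0.51 over 253 pairs of groups, with a median of -0.01. Within the 9 compounds the median was 0.27 over 36 pairs, and library 2 was above library 1 in 9 of 9 groups for S1PR3 and S1PR1 and in 8 of 9 for SPHK1 and SGPP2. In the 6 groups with S9 it was below library 1 in 6 of 6 for S1PR3 and SGPP2. A replicate block changed 1 call, SGPP2 in the 6 against the 9 compounds (-0.54, adjusted p 0.0606), which left 4 member calls there in place of 5. The block was 1 shift shared by all groups, so it could not take up opposite shifts in different sets. Pairing within a set was not tested. With only the groups compared, SPHK2 lost its calls in DMSO against D0 (adjusted p 0.066) and in TDCIPP, TEP, AO_2246, BHT and DTBP, and SGPL1 in CYC (adjusted p 0.0952). The cause was not tested. The lowest counts, 12.3 for SGPP2 and 13 for S1PR1, limit what these 2 genes can show.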

Other observations

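In the groups with S9 against DMSO_S9, other sphingolipid genes stood in the same relation to the DMSO_S9 libraries. PLPP1 was higher in 6 of 6 groups by log2 fold changes of 3.42 in ACE_S9 to 3.66 in TPHP_S9, with 216 to 274 TPM in the 6 compounds with S9 and 19.4 and 22.1 TPM in DMSO_S9. S1PR5 was higher in 6 of 6, from 2.73 in ACE_S9 to 3.14 in IMI_S9. SPTLC3 was lower in 6 of 6, from -1.92 in ACE_S9 to -2.35 in CYC_S9, while SPTLC2 was higher in 6 of 6, from 1.01 in TDCIPP_S9 to 1.19 in TPHP_S9. GALC, the lysosomal enzyme that removes galactose from galactosylceramide, was lower in 6 of 6, from -0.99 in TDCIPP_S9 to -1.18 in TPHP_S9, with 7.72 to 10.08 TPM in the 6 compounds with S9 and 18.4 and 19.2 TPM in DMSO_S9. In each of these comparisons 48.5% to 50.6% of all genes passed, and all of them use the DMSO_S9 libraries.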
